A study of Mus musculus with 10 samples.

Results

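The Rab GTPases are the largest branch of the Ras superfamily of small GTPases and give membranes inside the cell their identity. The members described here were all genes of the expression table whose symbol is Rab followed by a number and at most a letter and a further digit, and 59 of the 55487 genes listed met this rule. The rule uses no measured value, although it was chosen with earlier results of these data known. The data were RNA sequencing values of intestinal epithelial cells (IECs) from the colon of wild type (WT) and RhoB-/- mice on the C57BL/6J background. There were 5 WT and 5 RhoB-/- libraries, and each was taken as 1 mouse. Each gene was given in TPM, a unit of transcript abundance that is relative to gene length and to the library total.

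The RhoB-/- mice were homozygous knockouts for the small GTPase RhoB in the whole animal. No treatment is stated for either group. The methods of the study give an age of 6 to 8 weeks unless stated otherwise, and describe the WT mice as purchased males and the knockout mice as generated at a different centre, with all mice kept in the same pathogen-free facility. Genotype and source of the mice cannot be told apart. The sex of the knockout mice is not given in the sources used here. IECs were released from opened colons with EDTA and DTT and were not sorted, so other cells of the mucosa could be carried along.

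A Rab protein is a switch. Bound to GTP it sits on a membrane by its prenyl tail and recruits effectors, which are tethers, motors and sorting proteins, and once its GTP is hydrolysed it is drawn off the membrane by a GDP dissociation inhibitor. Exchange factors of the DENN, Vps9 and TRAPP families turn Rabs on, and TBC-domain proteins turn them off. In the absorptive cells and goblet cells of the colon, Rabs direct receptors, transporters and mucin granules to the apical or the basolateral surface. RhoB is found on endosomes as well as at the plasma membrane, where several of these Rabs also act.

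Rhob itself was at 170.52, 302.77, 364.92, 333.44 and 388.71 TPM in the 5 WT libraries. In the RhoB-/- libraries it was at 0.09, 0.10, 0.35, 0.57 and 110.87 TPM in replicates 1 to 5. The last of these values goes against the label, so each Rab gene called below is also given without the library labelled RhoB-/- replicate 5. Mitochondrial genes took 17.5% to 26.5% of TPM in WT and 10.3% to 22.4% in RhoB-/- libraries, and the number of genes above 0 was 20261 to 21344. TPM keeps no read counts, so the depth behind each value is unknown, and the labels do not say how the mice were raised or processed together. Markers of the colon epithelium such as Epcam, Vil1 and Car1 were high and summed to 23666 to 30655 TPM in WT and 25908 to 44061 TPM in RhoB-/- libraries. Of the 13 tested, Car4, Cdx2, Krt20 and Vil1 rose and none fell, where 7.73% of all tested genes rose and 13.5% fell. The part of these markers in the levels of the Rab genes was not tested.

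Of the 59 Rab genes, 45 had a mean of at least 1 TPM over the 10 libraries and entered the comparison across all genes, 14 lay below that level, and 1 of these, Rab39, was listed at 0 in every library. The Rab genes together made up 0.189% of TPM in WT and 0.203% in RhoB-/- libraries. Their summed level was 1713.3, 2070.9, 1828.0, 1874.0 and 1817.1 TPM in the WT libraries, and 1935.8, 1724.2, 2255.1, 1942.7 and 2179.7 TPM in the RhoB-/- libraries. The ranges overlapped, and the means were 1860.7 ± 131.4 (SD, n = 5) and 2007.5 ± 212.5 TPM (SD, n = 5).

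Levels spread widely around a few high members. In WT colon IECs, 5 Rab genes were above 100 TPM and held 39.0% of all Rab TPM, 27 lay between 10 and 100 TPM, 12 between 1 and 10 TPM, and 15 below 1 TPM. The highest was Rab25 at 197.8 ± 18.2 TPM (SD, n = 5), an epithelial member of the Rab11 subfamily that acts at the apical recycling endosome. Rab11a, the widely expressed member of the same subfamily, followed at 182.8 ± 12.2 TPM. Rab25 was above Rab11a in each of the 5 WT libraries, although the SDs of the levels overlapped.

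Below this pair came Rab7, which drives fusion of late endosomes with lysosomes, at 123.8 ± 10.4 TPM, and Rab1a, which acts between the endoplasmic reticulum (ER) and the Golgi, at 120.1 ± 7.70 TPM. These neighbours differed by less than the spread between mice. Rab5c, an early endosome Rab, was at 101.9 ± 10.1 TPM, and Rab2a, of ER to Golgi transport, at 96.3 ± 7.56 TPM, again within each other's spread. The next were Rab1b at 82.3 ± 10.2, Rab11b at 79.4 ± 8.40 and Rab8a, which acts in apical exocytosis, at 77.0 ± 11.1 TPM, an order that the spread between mice did not separate.

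**Figure D1:**
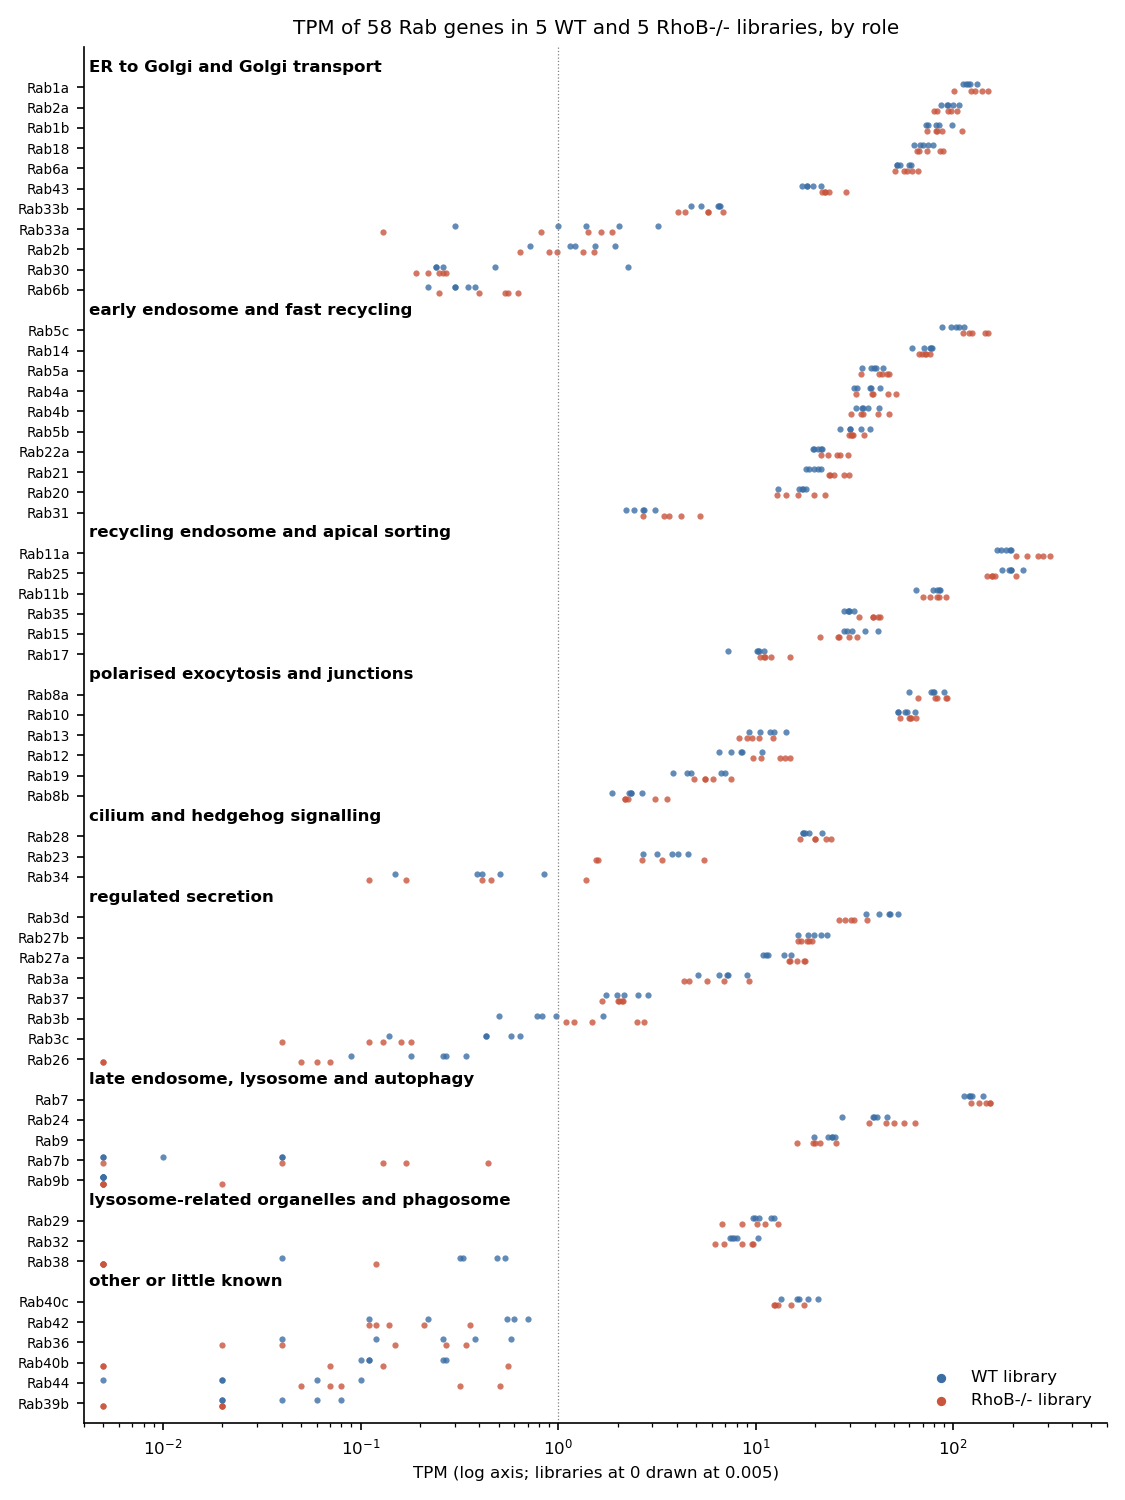
Each point is 1 library, on a log axis of TPM, for the Rab genes above 0 in at least 1 library, grouped by the transport step they serve, with WT in blue and RhoB-/- in red, libraries at 0 drawn at 0.005 TPM and the dotted line at 1 TPM. The recycling Rabs Rab25 and Rab11a and the late endosome Rab7 lie farthest to the right, and most members show overlapping blue and red points.

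By transport step, the recycling endosome and apical group of 6 genes held the largest share of Rab TPM in WT, 28.6%, followed by 11 ER and Golgi Rabs with 24.4% and 10 early endosome Rabs with 20.3%. The 6 genes of polarised exocytosis and junctions held 8.68% and the 8 Rabs of regulated secretion 4.75%. The shares in RhoB-/- libraries were 29.3%, 23.6%, 21.3%, 8.67% and 3.73% in the same order. The 5 late endosome and lysosome Rabs summed to 186.0 ± 17.0 TPM in WT against 213.6 ± 24.8 TPM in RhoB-/- libraries. The summed level of the secretion Rabs was 88.5 ± 11.3 TPM in WT against 74.8 ± 5.07 TPM in RhoB-/- libraries (SD, n = 5 each), with ranges of 73.7 to 103.3 and 68.7 to 81.9 TPM that overlapped. Expression varied little between mice of a group, with a median coefficient of variation over the 45 tested members of 12.3% in WT and 14.6% in RhoB-/- mice. In WT it ran from 4.40% for Rab35 to 69.8% for Rab33a, a Golgi Rab at 1.59 TPM.

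Between the genotypes, 7 Rab genes rose in RhoB-/- IECs and 1 fell. Those that rose were Rab11a and Rab35 of the recycling endosome, Rab5c and Rab21 of the early endosome, Rab12, Rab27a and Rab43, and the gene that fell was the secretory granule Rab Rab3d. The changes were small, from -0.55 to 0.53 on the log2(TPM + 1) scale over the 45 tested members. The test was limma on log2(TPM + 1) over all 12870 genes with a mean of at least 1 TPM, and a gene was called at an adjusted p below 0.05 after Benjamini-Hochberg adjustment over these genes.

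The 7 that rose were 15.6% of the tested members, where 7.73% of all tested genes rose, and the 1 that fell was 2.22%, where 13.5% of all tested genes fell. With mitochondrial genes left out before rescaling, the members split into 6 higher and 4 lower, with Rab25, Rab40c and Rab9 added to the lower side, or 13.3% and 8.89%. Over all genes that setting gave 8.29% higher and 28.1% lower, with a median log2 fold change of -0.20. Without the library labelled RhoB-/- replicate 5, 3 members rose, Rab11a, Rab21 and Rab35, and Rab3d fell. The 3 were 6.67% of the members, near the 5.6% of all genes that rose in that fit, and 8.68% of all genes fell. At the thresholds of the study, which ask for a fold change over 1.5 with an unadjusted p under 0.05, no member was called in either direction, where 6.37% of all tested genes were called higher and 8.33% lower. At an unadjusted p below 0.05 alone, limma gave 12 members, 11 higher and 1 lower, where 11.9% of all tested genes were higher and 24.9% lower, and no other tool was run.

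In all, 27 of the 45 members had a positive log2 fold change, or 60.0%, against 34.6% of all tested genes. The median log2 fold change was 0.08 over the members and -0.13 over all tested genes, and 32 members lay above the latter. Both the 27 and the 32 include Rab3b, which was tested only because of its RhoB-/- values. The median size of the change, whatever its sign, was 0.17 over the members and 0.26 over all tested genes. After subtraction of the median of all genes, 10 members, or 22.2%, were called higher, with Rab7, Rab22a and Rab31 added, and Rab3d alone lower, where 11.2% of all genes were higher and 5.99% lower. The expression ranges of the genotypes did not overlap for 4 members higher in RhoB-/- mice, Rab11a, Rab21, Rab35 and Rab43, which is 8.89% against 5.97% of all tested genes, and for none lower, against 8.55%.

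**Figure D2:**
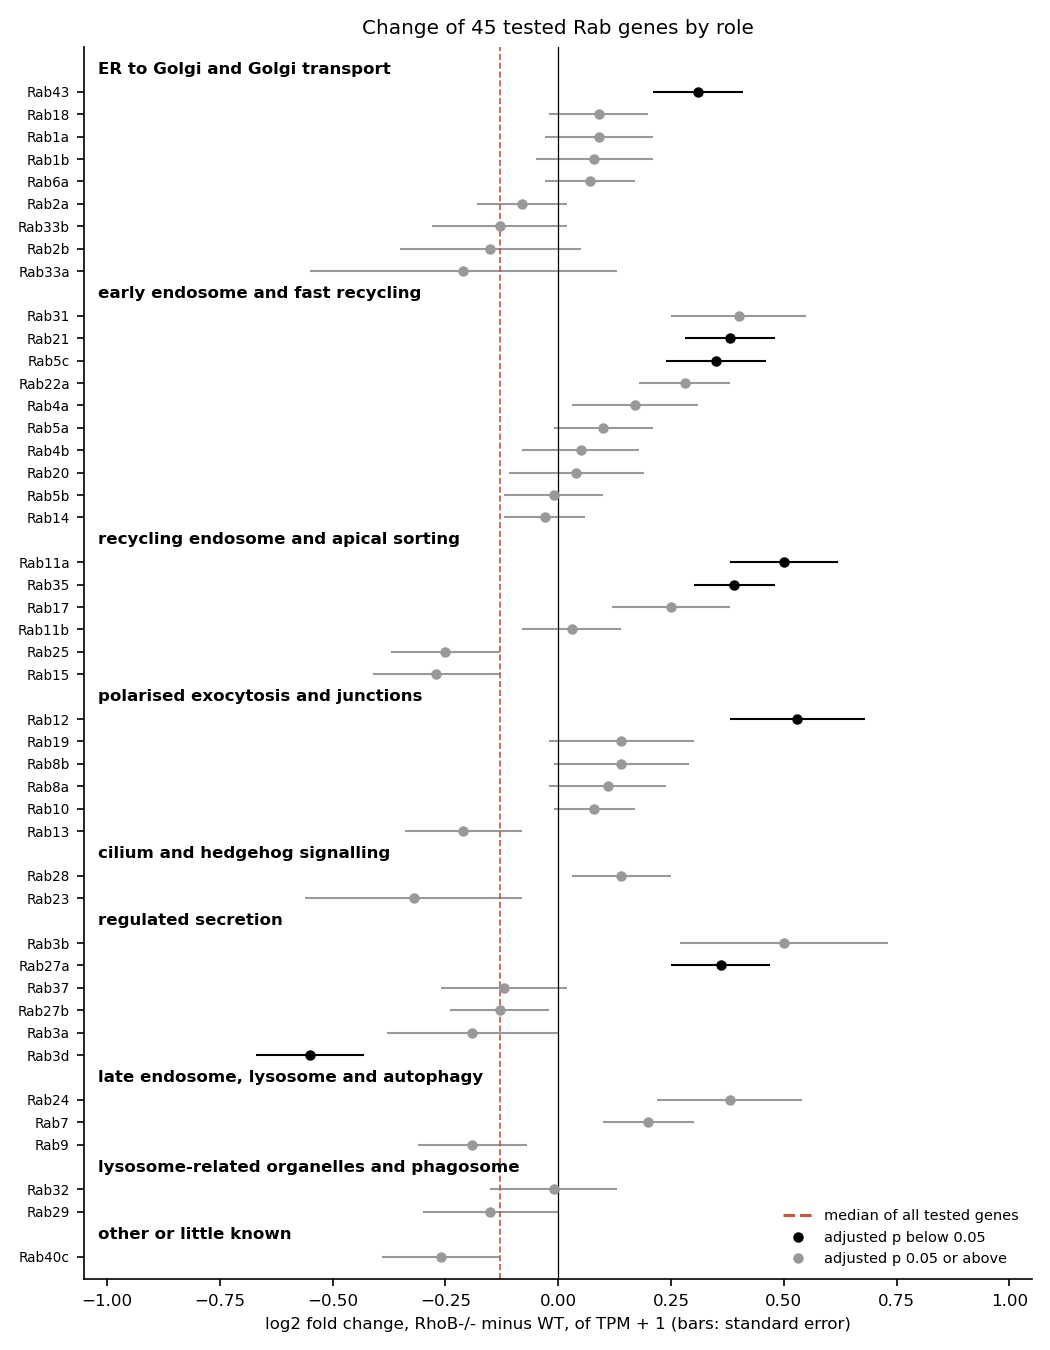
Each point is the difference of mean log2(TPM + 1), RhoB-/- minus WT, of 1 of the 45 tested Rab genes, grouped by transport step, with bars for the standard error and black for an adjusted p below 0.05. The dashed line marks the median of all 12870 tested genes at -0.13, and 32 members lie to its right.

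The recycling endosome returns internalised receptors and new apical cargo to the surface, and its Rab11 subfamily held the clearest contrast between close relatives. Rab11a, on the minus strand at chr9:64715299-64737758 of GRCm38 (GENCODE M21), was at 167.13, 195.44, 193.44, 184.01 and 174.04 TPM in WT libraries. In RhoB-/- libraries it was at 269.55, 207.14, 285.56, 235.69 and 307.97 TPM. Every RhoB-/- library was above every WT library, with means of 182.8 ± 12.2 and 261.2 ± 40.1 TPM (SD, n = 5 each). The log2 fold change was 0.50 (SE 0.12, limma adjusted p = 0.0137), and 0.44 without the library labelled RhoB-/- replicate 5 (limma adjusted p = 0.0341).

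Rab25, on the minus strand at chr3:88542029-88548300, did not pass the test. It was at 176.40, 226.58, 197.01, 196.95 and 192.19 TPM in WT, and at 157.88, 147.88, 208.70, 162.69 and 156.75 TPM in RhoB-/- libraries. Of the RhoB-/- libraries, 4 were below all WT libraries and replicate 3 was above 4 of them. The log2 fold change was -0.25 (SE 0.12, limma adjusted p = 0.138), and without RhoB-/- replicate 3 it was -0.33 with a limma adjusted p of 0.0218. Rab11b, the third member, averaged 79.4 ± 8.40 TPM in WT against 81.1 ± 8.09 TPM in the knockout, with a log2 fold change of 0.03 (SE 0.11, limma adjusted p = 0.858) whose sign turned under other scalings.

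Rab25 was thus the highest Rab gene in each WT library, and Rab11a in each RhoB-/- library. A ratio of genes within a library does not depend on how the library was scaled, so the log2 ratio of Rab11a to Rab25 was compared directly. It was -0.08, -0.21, -0.03, -0.10 and -0.14 in the WT libraries, and 0.77, 0.49, 0.45, 0.53 and 0.97 in the RhoB-/- libraries. The mean went from -0.11 ± 0.07 to 0.64 ± 0.22 (SD, n = 5 each), a difference of 0.76 (exact permutation test over the 252 labelings, two-sided p = 0.00794, the smallest this design allows, and 0.0212 adjusted over 16 pairs). Leaving out any 1 library kept the difference between 0.67 and 0.80. The ratios were chosen after the levels had been seen.

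**Figure D3:**
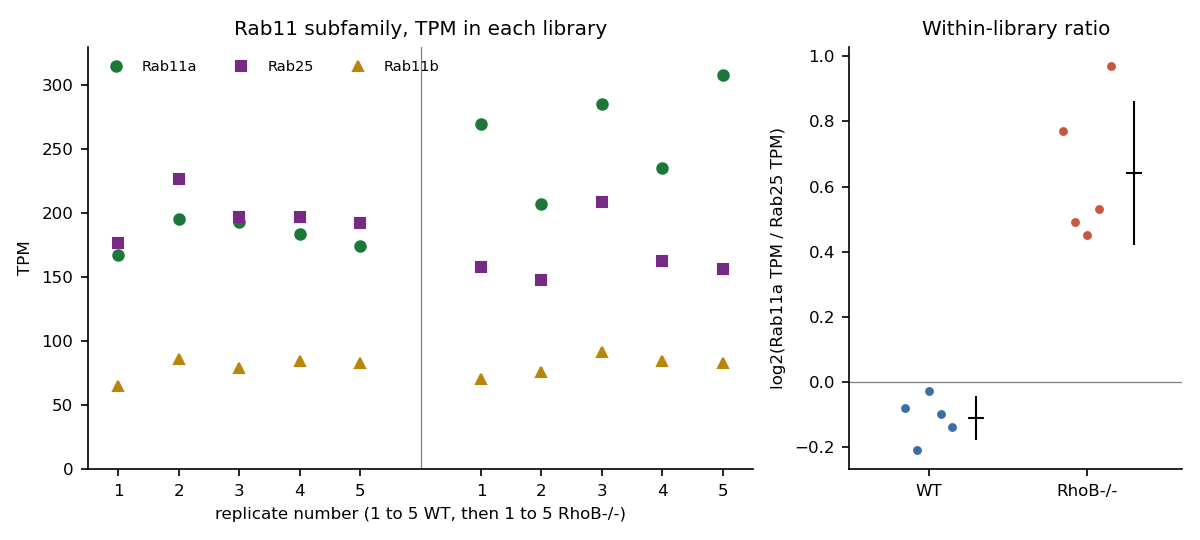
Left, TPM of Rab11a (circles), Rab25 (squares) and Rab11b (triangles) in each of the 5 WT and 5 RhoB-/- libraries. Right, the log2 ratio of Rab11a to Rab25 in each library with the mean and SD of each genotype, below 0 in all WT libraries and above 0 in all RhoB-/- libraries.

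The promoters of Rab11a, Rab25 and Rab3d are shown because the first and the last were the members that kept their calls in all settings tried, and Rab25 is the close relative of Rab11a that did not rise. Each is the 250 bases before the RefSeq start on GRCm38.p6, read 5′ to 3′ on the gene's strand. Capitals mark matches on either strand to any of 3 motifs. The GC box, bound by Sp1 and its relatives, was searched as GGGCGG. The CCAAT box was searched by the letters of its name. The motif of ETS factors was searched as CCGGAAG. The windows are chr9:64737757-64738006, chr3:88548280-88548529 and chr9:21918184-21918433, all on the minus strand.
Rab11a: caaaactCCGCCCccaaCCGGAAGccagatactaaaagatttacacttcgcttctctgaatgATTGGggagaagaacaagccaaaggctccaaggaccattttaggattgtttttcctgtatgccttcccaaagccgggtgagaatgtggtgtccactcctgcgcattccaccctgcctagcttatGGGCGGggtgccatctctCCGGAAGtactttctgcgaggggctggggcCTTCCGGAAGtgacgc
Rab25: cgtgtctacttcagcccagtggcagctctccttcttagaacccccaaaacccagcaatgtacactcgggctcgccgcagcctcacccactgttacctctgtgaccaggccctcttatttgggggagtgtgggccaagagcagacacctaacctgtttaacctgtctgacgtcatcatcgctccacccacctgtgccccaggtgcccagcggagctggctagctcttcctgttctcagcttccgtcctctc
Rab3d: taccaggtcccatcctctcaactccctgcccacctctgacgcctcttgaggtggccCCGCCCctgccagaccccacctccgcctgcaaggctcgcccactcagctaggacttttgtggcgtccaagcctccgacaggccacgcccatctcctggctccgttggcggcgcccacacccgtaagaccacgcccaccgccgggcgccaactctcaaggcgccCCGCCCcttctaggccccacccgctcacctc

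The window of Rab11a held 2 GC boxes, 1 CCAAT box and 4 ETS matches, of which those at its 3′ end overlap each other on opposite strands. The window of Rab3d held 2 GC boxes, and that of Rab25 none of these motifs. The CpG count was 10, 8 and 18 for Rab11a, Rab25 and Rab3d, and the GC content 53.6%, 58.4% and 69.2%. RefSeq promoters were at hand for 48 of the 59 members, 60 in number. A GC box was in 66.7% of them and in 32.7% of all 32851 promoters, a CCAAT box in 40.0% and 33.8%, and an ETS match in 5.0% and 6.9%. An E-box, searched as the letters CACGTG, was in 8.3% and 6.0% of the same promoters. The median CpG count was 15 in members and 6 in all promoters. A TATA box, searched as the letters TATAAA, was in 6.7% of member promoters and 12.4% of all promoters. These matches are descriptions of letters, not of bound sites.

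Rab35, on the plus strand at chr5:115631908-115647736, is a Rab of fast recycling and of the apical membrane. It was at 27.89, 31.51, 29.59, 29.20 and 29.79 TPM in WT and at 39.21, 33.28, 41.56, 39.32 and 42.34 TPM in RhoB-/- libraries. The groups did not overlap, and the WT values were the most alike of any tested member. Its log2 fold change was 0.39 (SE 0.09, limma adjusted p = 0.0129), and 0.36 without the library labelled RhoB-/- replicate 5 (limma adjusted p = 0.0331). Of the others of this group, Rab17, an epithelial Rab of transcytosis, was at 9.85 and 11.9 TPM and Rab15 at 33.0 and 27.2 TPM in WT and RhoB-/- mice, and neither passed the test.

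Among the 10 early endosome Rabs, 2 rose, none fell and 8 had a positive log2 fold change, with a median of 0.14. Of all tested genes 7.73% rose, 13.5% fell and 34.6% had a positive log2 fold change. The median was also 0.14 in the recycling endosome group, 0.12 in polarised exocytosis and 0.20 in the late endosome group. Rab21, which works in integrin uptake, was on the minus strand at chr10:115287084-115315594. Its values were 19.73, 21.48, 20.63, 18.62 and 18.08 TPM in WT and 23.48, 23.68, 28.06, 24.96 and 29.75 TPM in RhoB-/- libraries, with no overlap. The log2 fold change was 0.38 (SE 0.10, limma adjusted p = 0.0197), and 0.33 without the library labelled RhoB-/- replicate 5 (limma adjusted p = 0.0477). The call was lost without WT replicate 4 or WT replicate 5, where the limma adjusted p reached 0.0569.

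Rab5c, on the minus strand at chr11:100715009-100738215, is 1 of 3 Rab5 genes whose products govern fusion of early endosomes. It was at 87.37, 113.73, 103.46, 107.46 and 97.37 TPM in WT and at 120.27, 111.87, 149.32, 124.31 and 144.33 TPM in RhoB-/- libraries. The groups overlapped at RhoB-/- replicate 2, and the log2 fold change of 0.35 (SE 0.11, limma adjusted p = 0.0490) lay closest of all members to the threshold on its inner side. Without the library labelled RhoB-/- replicate 5 it was 0.31 (limma adjusted p = 0.107), and the call held in 1 of 10 fits that each left out a library, the fit without RhoB-/- replicate 2. Just outside the threshold was Rab22a, an early endosome Rab, at 20.6 ± 0.980 and 25.3 ± 3.02 TPM (log2 fold change 0.28, SE 0.10, limma adjusted p = 0.0641).

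The other 2 Rab5 genes had smaller differences. Rab5a was at 39.5 and 42.5 TPM and Rab5b at 31.7 and 31.4 TPM in WT and RhoB-/- mice, with log2 fold changes of 0.10 and -0.01. Within libraries, the log2 ratio of Rab5a to Rab5c went from -1.36 ± 0.07 to -1.61 ± 0.10, and that of Rab5b to Rab5c from -1.69 ± 0.07 to -2.04 ± 0.15 (SD, n = 5 each). Neither ratio overlapped between genotypes (each exact permutation p = 0.00794, 0.0212 adjusted over 16 pairs). The ratio of Rab5a to Rab5b differed by 0.11 (exact permutation p = 0.238).

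Late endosomes and lysosomes are served by Rab7, Rab9 and Rab24, none of which passed the test. Rab7 averaged 123.8 ± 10.4 TPM in WT against 142.1 ± 13.0 TPM in the knockout, with a log2 fold change of 0.20 (SE 0.10, limma adjusted p = 0.180). Rab24, an autophagy Rab, was at 38.8 ± 6.92 and 50.8 ± 10.1 TPM (log2 fold change 0.38, limma adjusted p = 0.116). Its transcripts share 408 identical bases with Prelid1 on the opposite strand, which averaged 235.6 TPM, so its level is uncertain. Rab9, of transport from endosomes to the Golgi, was at 23.4 and 20.5 TPM.

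Of the ER and Golgi Rabs, 9 were tested and 1 rose, where 7.73% of all tested genes rose. Rab1a was at 120.1 ± 7.70 and 128.5 ± 18.6 TPM in WT and RhoB-/- mice, Rab1b at 82.3 and 87.1 TPM and Rab2a at 96.3 and 91.4 TPM, with log2 fold changes of 0.09, 0.08 and -0.08. Their limma adjusted p values were 0.614, 0.695 and 0.621. These highly expressed Rabs of the early secretory route thus differed by less than the spread between mice. The log2 ratio of Rab1a to Rab1b, at 0.55 and 0.56, differed by 0.01 (exact permutation p = 0.944).

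Rab43, a Golgi Rab on the minus strand at chr6:87788853-87812164, was the ER and Golgi member that rose. It was at 18.19, 21.30, 17.18, 19.46 and 18.27 TPM in WT and at 23.52, 22.51, 21.63, 22.54 and 28.71 TPM in RhoB-/- libraries. The groups did not overlap, with a gap between 21.30 and 21.63 TPM, and the log2 fold change was 0.31 (SE 0.10, limma adjusted p = 0.0474). Without the library labelled RhoB-/- replicate 5 it was 0.25 (limma adjusted p = 0.101), and the call held in 2 of 10 fits that each left out a library, those without WT replicate 2 and without RhoB-/- replicate 3. A readthrough gene, Gm45140, shares 4166 bases with Rab43, so the level of Rab43 is uncertain.

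In polarised exocytosis, Rab8a and Rab10, which bring vesicles to the apical and basolateral surface, were at 77.0 and 56.9 TPM in WT and 82.9 and 60.1 TPM in RhoB-/- mice, and neither passed the test. Rab12, on the minus strand at chr17:66494512-66519729 and known from receptor degradation and autophagy, was placed in this group. It was at 10.77, 8.40, 8.55, 7.51 and 6.54 TPM in WT and at 10.64, 14.87, 9.69, 13.27 and 14.13 TPM in RhoB-/- libraries. The groups overlapped at WT replicate 1, and its log2 fold change of 0.53 (SE 0.15, limma adjusted p = 0.0255) was the highest of any tested Rab. Without the library labelled RhoB-/- replicate 5 it was 0.49 (limma adjusted p = 0.0620). The call held in 4 of 10 fits that each left out a library, those without WT replicate 1, WT replicate 3, RhoB-/- replicate 1 or RhoB-/- replicate 3.

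The secretion Rabs moved in both directions. Rab3d, a Rab of secretory granules on the minus strand at chr9:21907491-21918192, fell. It was at 47.71, 52.75, 36.32, 47.33 and 42.18 TPM in WT and at 31.29, 28.24, 36.45, 30.45 and 26.55 TPM in RhoB-/- libraries. The ranges touched, since RhoB-/- replicate 3 was at the level of WT replicate 3, and the other 4 RhoB-/- libraries were below all WT libraries. The log2 fold change was -0.55 (SE 0.12, limma adjusted p = 0.00951), and -0.50 without the library labelled RhoB-/- replicate 5 (limma adjusted p = 0.0259).

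Rab3d was the main Rab3 gene here, with Rab3a at 7.02 and 6.15 TPM and Rab3b at 0.956 and 1.80 TPM in WT and RhoB-/- mice. Rab3a and Rab3b, which act in regulated exocytosis of neurons and endocrine cells, did not pass the test. The log2 ratio of Rab3b to Rab3d went from -5.67 ± 0.59 to -4.18 ± 0.68 (SD, n = 5 each, exact permutation p = 0.0159, 0.0363 adjusted over 16 pairs), and the genotypes overlapped. Rab3b averaged below 1 TPM in WT and entered the comparison only through its RhoB-/- values, so no conclusion is drawn from this ratio. The enteroendocrine markers summed to 478.1 to 631.5 TPM in WT and 253.2 to 440.1 TPM in RhoB-/- libraries, 5 of the 10 tested fell, none rose, and none of the 14 was at 0 in all libraries. In the same libraries the goblet cell markers summed to 13958 to 16083 TPM in WT and 18176 to 21372 TPM in RhoB-/- mice, with 4 of 11 higher, none lower and none at 0. Over all tested genes 7.73% rose and 13.5% fell. The part of either cell type in the level of Rab3d was not tested, and in bulk samples fewer cells of a type and less RNA per cell cannot be told apart.

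Rab27a and Rab27b dock secretory granules and lysosome-related organelles at the plasma membrane, and Rab27a also serves the cytotoxic granules of lymphocytes. Rab27a, on the plus strand at chr9:73044854-73097629, was at 15.13, 13.87, 10.88, 11.23 and 11.61 TPM in WT and at 17.66, 17.84, 14.76, 16.28 and 14.90 TPM in RhoB-/- libraries. The groups overlapped only at WT replicate 1, and the log2 fold change was 0.36 (SE 0.11, limma adjusted p = 0.0411). Without the library labelled RhoB-/- replicate 5 it was 0.39 (limma adjusted p = 0.0549). The call held in 3 of 10 fits that each left out a library, those without WT replicate 1, WT replicate 2 or RhoB-/- replicate 3.

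Rab27b was the higher of the pair in WT, at 19.8 ± 2.56 TPM, and was at 17.9 ± 1.22 TPM in RhoB-/- mice (log2 fold change -0.13, limma adjusted p = 0.390). The log2 ratio of Rab27a to Rab27b went from -0.66 ± 0.12 to -0.14 ± 0.17 (SD, n = 5 each), with no overlap (exact permutation p = 0.00794, 0.0212 adjusted over 16 pairs). The difference of 0.52 was 0.53 without the library labelled RhoB-/- replicate 5. The markers of T and NK lymphocytes summed to 15.7 to 31.7 TPM in WT and 64.7 to 74.8 TPM in RhoB-/- libraries, 8 of the 10 tested rose, none fell, and none of the 13 was at 0 in all libraries. Over all tested genes 7.73% rose and 13.5% fell. Zap70, Itgae and Cd8a, among the 8, averaged 0.554, 0.706 and 0.832 TPM in WT. These genes reached the filter of 1 TPM only through their RhoB-/- values, so their calls are not read as a result. The part of the lymphocyte markers in the level of Rab27a was not tested.

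**Figure D4:**
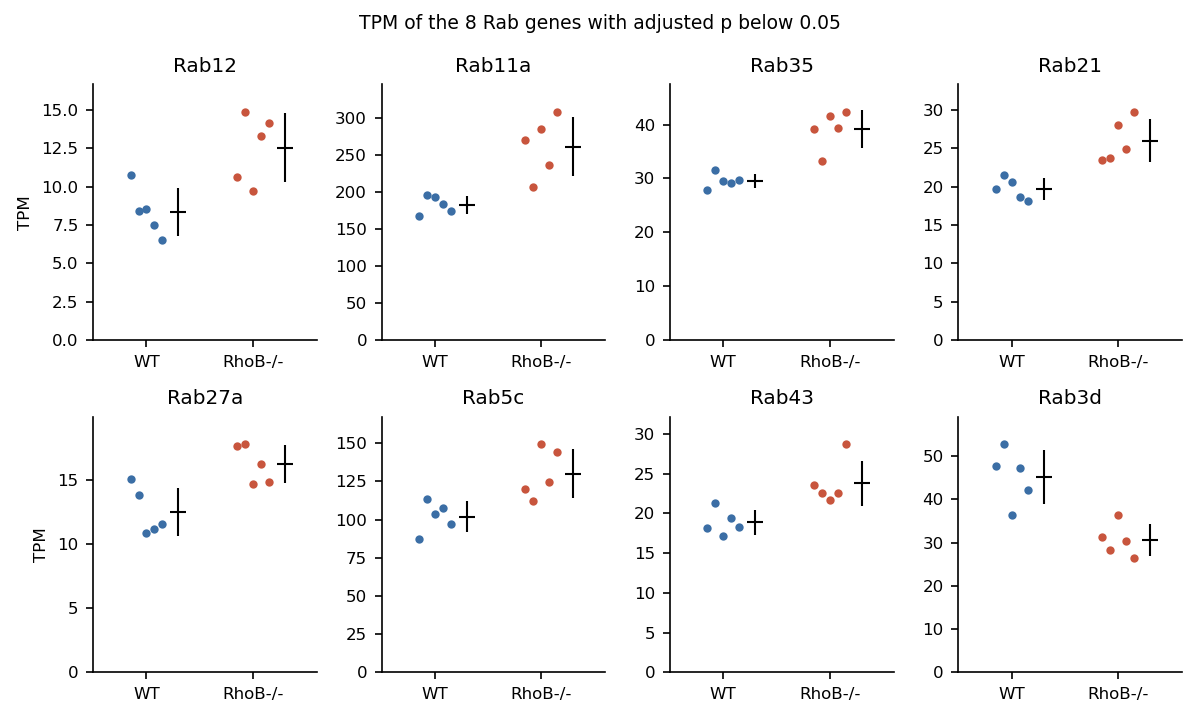
TPM of the 8 Rab genes with an adjusted p below 0.05 in each library, with the mean and SD (bar) of the 5 WT and 5 RhoB-/- libraries beside the points and every axis from 0. The ranges are apart for Rab11a, Rab35, Rab21 and Rab43 and overlap for Rab12, Rab27a, Rab5c and Rab3d.

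Of the remaining groups, none of the tested members passed the test. Rab28, a ciliary Rab, was at 18.6 and 20.7 TPM in WT and RhoB-/- mice, with a log2 fold change of 0.14 (limma adjusted p = 0.378). Rab29, a Rab of lysosomes and the Golgi, was at 10.9 and 9.90 TPM (log2 fold change -0.15, limma adjusted p = 0.497). Rab40c, which recruits a ubiquitin ligase, was at 17.0 and 14.1 TPM (log2 fold change -0.26, limma adjusted p = 0.179).

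Of the 16 ratios between members of the same subfamily, 7 differed between the genotypes after adjustment over the pairs. The 6 whose libraries did not overlap were Rab11a to Rab25, Rab11a to Rab11b, Rab11b to Rab25, Rab27a to Rab27b, Rab5a to Rab5c and Rab5b to Rab5c. The other was Rab3b to Rab3d, where Rab3b passed the filter of 1 TPM only through its RhoB-/- values. Pairs within a subfamily share genes, so the ratios are not independent of each other. Ratios of other gene pairs were not computed, so the 7 of 16 are not read as a result about Rab subfamilies. Taken singly, 5.97% of all tested genes were higher and 8.55% lower in RhoB-/- libraries without overlap. The log2 ratio of Rab11a to Rab11b went from 1.21 to 1.68 and that of Rab11b to Rab25 from -1.32 to -1.04 (each exact permutation p = 0.00794, 0.0212 adjusted over 16 pairs). Among the 9 others, the differences ran from -1.15 for Rab3a to Rab3b (exact permutation p = 0.0873) to 0.34 for Rab3a to Rab3d (exact permutation p = 0.190). The ratio of Rab8a to Rab8b differed by -0.08 (exact permutation p = 0.651).

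**Figure D5:**
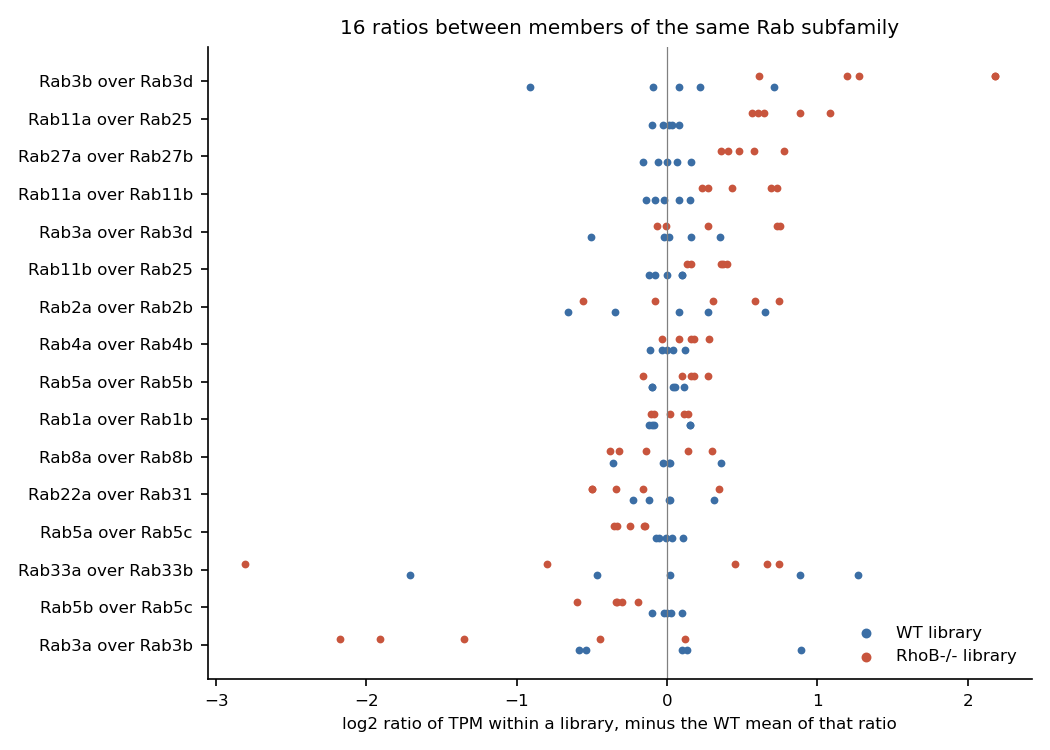
Each point is the log2 ratio of TPM of a pair of Rab genes in 1 library, minus the WT mean of that ratio, for 16 pairs of the same subfamily, with WT in blue and RhoB-/- in red. The red points of Rab11a over Rab25 lie to the right of all blue points, and those of Rab5b over Rab5c to the left.

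Of the 14 members below 1 TPM, the 13 above 0 in some library were compared 1 by 1 with an exact permutation test of mean TPM, two-sided, unadjusted. Rab26, a Rab of secretory granules, was at 0.228 ± 0.0958 TPM in WT against 0.036 ± 0.0336 TPM in RhoB-/- mice, with no overlap (exact permutation p = 0.00794). Rab38, of lysosome-related organelles, was at 0.344 ± 0.196 TPM in WT, and 4 of the RhoB-/- libraries were at 0 (exact permutation p = 0.0159). Rab3c, of regulated exocytosis, was at 0.444 ± 0.193 and 0.124 ± 0.0541 TPM (exact permutation p = 0.0238). All 3 were lower in RhoB-/- mice, at levels well below 1 TPM, and the exact permutation p stayed at or below 0.0317 when any 1 library was left out. Among genes with a mean of at least 1 TPM, 24.9% were lower and 11.9% higher at an unadjusted limma p below 0.05. The share among all genes below 1 TPM was not computed, so the 3 of 13 are not read as a result about Rab genes. The enteroendocrine markers given beside Rab3d were also lower in RhoB-/- libraries, and their part in the levels of these 3 genes was not tested. The exact permutation p was 0.0794 for Rab6b, Rab39b and Rab44, and from 0.103 to 1.0 for the other members above 0.

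The genes that act on Rabs were described from fixed lists, written with earlier results of these data known. Prenylation factors, exchange factors, GTPase-activating proteins, effectors and Rab-like proteins together had 184 tested genes, of which 10 rose and 23 fell, with a median log2 fold change of -0.09. That is 5.43% and 12.5%, beside 7.73% and 13.5% of all tested genes. After subtraction of the median of all genes 16 of them were higher and 7 lower, or 8.70% and 3.80%, beside 11.2% and 5.99% of all genes. With mitochondrial genes left out 47 were lower, or 25.5%, beside 28.1% of all genes. Of the 14 genes for prenylation and removal from membranes, Rabggtb, the beta subunit of the enzyme that attaches the prenyl group, fell from 50.4 ± 6.72 to 35.9 ± 7.59 TPM (log2 fold change -0.49, SE 0.14, limma adjusted p = 0.0325). None of these 14 rose. The call of Rabggtb was lost after subtraction of the median of all genes (limma adjusted p = 0.106) and without the library labelled RhoB-/- replicate 5 (limma adjusted p = 0.0773), and held in 2 of 10 fits that each left out a library, those without WT replicate 1 or RhoB-/- replicate 3.

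Of 48 tested exchange factors, 5 fell and none rose, where 13.5% of all tested genes fell and 7.73% rose. Their median log2 fold change was -0.10, against -0.13 over all tested genes. After subtraction of that median, 2 were higher and 1 lower, where 11.2% of all genes were higher and 5.99% lower. Rin2, an exchange factor of the Rab5 group, was at 17.41, 27.00, 23.04, 23.62 and 25.08 TPM in WT and at 13.96, 14.49, 14.52, 18.39 and 15.14 TPM in RhoB-/- libraries (log2 fold change -0.56, SE 0.12, limma adjusted p = 0.00931). Rcc1l fell by 0.58 on the log2 scale (limma adjusted p = 0.0197), although it is known as a mitochondrial protein rather than as a Rab exchange factor, and it lost its call after subtraction of the median (limma adjusted p = 0.0594) and without WT replicate 4 (limma adjusted p = 0.0557). Of 40 tested GTPase-activating proteins, 4 rose and 10 fell, and after subtraction of the median of all genes 5 were higher and 4 lower. Tbc1d10b, known to act on Rab35, rose by 0.72 on the log2 scale (limma adjusted p = 0.00290), and its call held in every setting. Tbc1d10c, also known to act on Rab35, averaged 0.7 TPM in WT and 1.77 TPM in RhoB-/- libraries. Its mean reached 1 TPM only through the RhoB-/- libraries, so its call is not read as a result (log2 fold change 0.74, limma adjusted p = 0.0287). That call was also lost with the replicate block and without WT replicate 4, RhoB-/- replicate 1, RhoB-/- replicate 4 or the library labelled RhoB-/- replicate 5. The limma adjusted p was 0.0546 to 0.0737 in those fits that left out a library. Tbc1d8 and Tbc1d19 fell by 0.81 and 0.96 (limma adjusted p = 0.00142 and 0.0100).

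Of 75 tested effectors, 6 rose and 7 fell, where 7.73% of all tested genes rose and 13.5% fell. After subtraction of the median of all genes, 9 effectors were higher and 2 lower. Sytl1, a synaptotagmin-like effector of Rab27, fell from 32.1 ± 6.17 to 14.8 ± 3.35 TPM with no overlap between the genotypes (log2 fold change -1.08, SE 0.16, limma adjusted p = 0.00104). Bicd1, an adaptor between Rab6 and dynein, fell by 0.74 on the log2 scale (limma adjusted p = 0.0419). That call was lost after subtraction of the median (limma adjusted p = 0.0923) and without the library labelled RhoB-/- replicate 5 (limma adjusted p = 0.0790), and held in 2 of 10 fits that each left out a library, those without RhoB-/- replicate 1 or RhoB-/- replicate 2. Optn, which binds Rab8, rose from 20.7 ± 2.68 to 38.8 ± 8.14 TPM, and Plekhm1, a Rab7 effector of lysosome fusion, from 12.1 ± 1.27 to 23.4 ± 5.73 TPM (limma adjusted p = 0.00164 and 0.00232). Chosen after its values were seen, Myo5b, the motor that carries Rab11a vesicles to the apical surface, was at 76.2 ± 6.68 TPM in WT against 118.3 ± 17.4 TPM in RhoB-/- mice (log2 fold change 0.62, SE 0.12, limma adjusted p = 0.00392).

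The Rab-like genes outside the name rule gave 11 tested and none called by limma at the adjusted threshold.

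Other marker lists moved between the genotypes as well. All 18 interferon-response genes rose, where 7.73% of all tested genes rose. Their sum was 153.9 to 230.3 TPM in WT and 1483.6 to 2831.6 TPM in RhoB-/- libraries. Ifit2, Ifi44 and Mx2, among the 18, averaged 0.506, 0.316 and 0.496 TPM in WT and reached the filter of 1 TPM only through their RhoB-/- values. Of 15 heat shock and immediate-early genes, 8 fell and none rose, and of 10 tested stem and cycling cell genes 3 fell and none rose. Over all tested genes 13.5% fell. After subtraction of the median of all genes, 6 heat shock and immediate-early genes and 1 stem and cycling cell gene were lower. In that setting 5.99% of all genes were lower. Tuft cell genes summed to 9.22 to 24.4 TPM in WT and 24.3 to 36.3 TPM in RhoB-/- libraries. Macrophage, dendritic cell and neutrophil genes reached at most 31.1 and 51.3 TPM, fibroblast, muscle and endothelial genes summed to 7.12 to 10.7 and 10.1 to 40.7 TPM, and B and plasma cell genes to 1.02 to 4.21 and 4.71 to 21.0 TPM. Their part in the levels of the Rab genes was not tested.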

How the data were processed

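RNA of colon IECs was sequenced in 10 libraries, 5 WT and 5 RhoB-/-, grouped by the genotype in the sample labels. The authors used SeqPrep and Sickle to trim paired-end reads, HISAT2 for alignment, StringTie for assembly and RSEM for gene abundance. The submitters' processing notes name GRCm38.p6 and edgeR, and versions are not given in the sources used here. The deposited TPM values, relative to gene length and library, keep no depth, so no count test, interval or floor was computed, and a gene that takes much of a library lowers the others. The alignment used orientation mode, and whether counting used strand is not given. Of the 59 members, 14 share a stretch of at least 300 bases at 95% identity with another gene (BLAST+ 2.17.0), and 17 overlap a gene on the same strand and 21 a gene on the other.

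Genes with a mean of at least 1 TPM were tested with limma 3.58.1 in R 4.3.3 (lmFit, eBayes with trend, two-sided) on log2(TPM + 1), which understates the change of low genes, with Benjamini-Hochberg adjustment over 12870 genes. The procedure was tested on simulated data. Members below that level and ratios within libraries were compared by exact permutation over 252 labelings. The labels give 5 replicates a genotype without saying more, so each library was taken as 1 mouse, and p-values measure the spread between these libraries, which may be technical. The members and lists were chosen with earlier results of these data known. Named in the text by rule were the called members, the 8 highest, the highest of each role, those next to the threshold, low members with an exact permutation p below 0.05, and the 2 largest called changes in each direction of each pathway list. Other members were named to complete their subfamily or role. The 16 ratios were added after the data were seen. The labels name no pairing by replicate number, and the WT and RhoB-/- libraries came from different mice. Positions are from GENCODE M21 on GRCm38 and promoters from RefSeq. Alternatives were a pseudocount of 0.1, no filter, a filter of 5 TPM, 3 other centrings or normalizations, mitochondrial genes left out, no trend, a replicate block and leaving out each library. The result of some compiled lists is not reported here.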

Additional observations from a re-analysis of the deposited data

Results flagged for a closer look

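In 13 of the 117 sets of 5 libraries examined, 1 library lay far from the other 4 for its gene. About 5.8 were expected by chance, a figure that does not allow for genes near 0 TPM or for sets that share libraries. For Rab9b and Rab38, 4 RhoB-/- libraries were at 0, so any value above 0 stood apart. The 13 are therefore not read as an excess. For Rhob the library labelled RhoB-/- replicate 5 stood at 110.87 TPM, with the other 4 below 1 TPM. The same library was the highest of its group for Rab5b at 35.37 TPM, for Rab34 at 1.38 TPM and for Rab43 at 28.71 TPM, and the call of Rab43 was lost without it. RhoB-/- replicate 3 was highest for Rab25 at 208.7 TPM, and was the only library above 0 for Rab9b, at 0.02 TPM. Without it Rab25 passed the test as lower (limma adjusted p = 0.0218).

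The other RhoB-/- values far from their group were Rab37 in replicate 4 at 1.66 TPM, Rab38 in replicate 2 at 0.12 TPM and Rab40b in replicate 1 at 0.56 TPM. In WT they were Rab17 in replicate 1 at 7.26 TPM, Rab20 in replicate 1 at 12.9 TPM, Rab32 in replicate 2 at 10.33 TPM and Rab30 in replicate 5 at 2.25 TPM. The cause of these values was not tested.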

How the results depend on the processing

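Rab11a and Rab3d kept their direction and their call in all 10 fits that left out a library and all 9 other settings. Rab35 lost its call only with the replicate block, and Rab21 with the block and without WT replicate 4 or 5. Of the 9 other settings, Rab12 kept its call in 7, Rab27a in 6, Rab5c in 5 and Rab43 in 4. Depth is unknown, so the values below 1 TPM have no stated counting error. For the causes of what follows, beyond the change of setting itself, the cause was not tested.

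The count of Rab genes that rose, 7, was 3 without a filter, 16 with libraries centred on their median deviations, 11 after quantile normalization and 1 with the replicate block. Those were 6.67%, 35.6%, 24.4% and 2.22% of the 45 members, beside 3.27%, 15.6%, 12.3% and 6.5% of all genes. The count that fell, 1, was 4 without a filter, 2 after quantile normalization and 4 without mitochondrial genes. Without a filter those added were Rab26, Rab38 and Rab3c, which average below 1 TPM and are not among the 45. Among the 45, 1 fell without a filter, or 2.22%, beside 4.26% of all genes. Quantile normalization and leaving out mitochondrial genes gave 4.44% and 8.89% of members lower, beside 15.3% and 28.1% of all genes. At the study thresholds, 1 member was higher with a pseudocount of 0.1, 3 after recentring, 3 with each library centred and 2 after quantile normalization, and 1 was lower without mitochondrial genes. Of all 12870 tested genes, 906, 1062, 1038 and 927 were higher in those settings, and 1569 of 13287 were lower without mitochondrial genes. The median log2 fold change of the members was 0.20 after recentring and -0.00 without mitochondrial genes, where that of all genes was -0.20. Of other Rab pathway genes, 16 rose after recentring, 22 with each library centred and 22 after quantile normalization, and 11 fell without a filter, 8 with a filter of 5 TPM, 7 after recentring, 47 without mitochondrial genes and 8 with the replicate block. Over all genes, 2010 rose with each library centred and 1587 after quantile normalization, while 1104 fell with a filter of 5 TPM, 771 after recentring, 3729 without mitochondrial genes and 1059 with the block. At the study thresholds 611, 583, 609 and 654 were lower with a filter of 5 TPM, recentring, centred libraries and quantile normalization.

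Leaving out 1 library at a time gave 2 to 7 members higher and 1 to 2 lower, and 0 to 2 and 0 to 1 at the study thresholds, with a median log2 fold change of 0.03 to 0.13. The members higher were 4.44% to 15.6%, beside 5.6% to 8.95% of all genes. The members lower were 2.22% to 4.44%, beside 6.66% to 22.3% of all genes. Other pathway genes were 7 to 14 higher and 8 to 28 lower, and all genes 719 to 1154 higher and 853 to 2868 lower, or 699 to 923 and 863 to 1473 at the study thresholds. Between 0 and 5 of the tested members changed sign in any 1 setting, none of them called. Among those named by rule they were Rab11b, at -0.01 after quantile normalization, -0.04 without mitochondrial genes, -0.04 without WT replicate 1 and -0.01 without RhoB-/- replicate 3 (-0.04 to 0.08 over the libraries left out), Rab1b, at -0.00 without mitochondrial genes and -0.01 without RhoB-/- replicate 3 (-0.01 to 0.14 over the libraries left out), and Rab2a, at 0.05 after recentring and 0.04 with each library centred. Same-numbered mice deviated with correlations of -0.0874 to 0.0720, and 2 of 10 libraries correlated best with their own number, so the replicate block describes no pairing.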
